A study of Mus musculus with 8 samples.

Results

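The 9 genes described here encode surface or secreted proteins with which myeloid cells restrain or support T cells and other immune cells. They are Cd274, Pdcd1lg2, Havcr2, Vsir, Sirpa, Lgals9, Cd80, Cd86 and Cd83, taken by symbol as a fixed list from the 32285 genes of the count matrices. Every one of them had UMIs (unique molecular identifiers, each standing for 1 captured transcript) in all 8 groups of cells.

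T cells respond to an antigen-presenting cell through their antigen receptor together with signals from paired surface molecules. Cd80 and Cd86, the B7 ligands, activate T cells through CD28 and restrain them through CTLA-4, and Cd274 (PD-L1) and Pdcd1lg2 (PD-L2) restrain them through PD-1. Interferon gamma is the best known inducer of PD-L1 on tumor and myeloid cells. Vsir encodes VISTA, an inhibitory B7-like protein of myeloid and T cells, Havcr2 encodes the receptor TIM-3, Lgals9 encodes galectin-9, a lectin that can bind TIM-3, and Sirpa encodes the myeloid receptor that binds CD47 and restrains phagocytosis. Cd83 is a classical surface marker of mature dendritic cells.

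The cells were sorted as CD45+CD11b+Ly6Chi from MC38 colon carcinomas, which had grown under the skin of mice on the C57BL/6J background, or from blood of mice that bore such tumors. The tumors were left without irradiation or received 1 local dose of 20 Gy (IR), and cells were taken 3 days later, so that blood IR means blood of mice whose tumor was irradiated. All mice carried floxed Ythdf2 alleles and, per the methods, were males and females aged 8 to 10 weeks. WT mice (Ythdf2 fl/fl) had no Cre, and Ythdf2-cKO mice (Lyz-Cre; Ythdf2 fl/fl) had Cre at a lysozyme locus that is active in monocytes, macrophages and neutrophils and not in all other cells. Tumors of 5 mice were pooled per genotype and treatment, and a hashtag antibody marked the genotype within each of the 4 droplet libraries. Each of the 8 groups was therefore 1 pool with no replicate, no test across samples was possible, and every interval below is a 95% interval of counting error alone.

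After filtering, 27447 cells were kept, from 2153 to 4603 per group, with 18882394 to 24733549 gene UMIs per group and a median of 2862 to 8550 UMIs per cell. Lyz2, the lysozyme gene of myeloid cells, stood at 5583 to 14181 UMIs per 1000000 gene UMIs (CPM) in the groups labelled WT and at 83.5 to 138 CPM in those labelled cKO. Ythdf2 itself went against the label, with 32.8 to 55.8 CPM in WT and 302.4 to 371 CPM in cKO groups. Whether the 3′ reads cover the deleted part of the gene was not tested, nor was the cause of the higher level. Because Ythdf2 went against the label, the groups are called cells labelled WT and cells labelled cKO. The 2 tumor libraries shared 12184 called barcodes, of 12438 in tumor control and 12523 in tumor IR that passed the limits on genes and mitochondrial UMIs. Tumor control shared 43 with blood control. Of the 12184, 271 had at least 20 hashtag UMIs in both tumor libraries. That was 5.10% of the tagged barcodes of tumor control and 3.51% of those of tumor IR. Of barcodes with at least 500 gene UMIs, 55.7% in tumor control and 38.4% in tumor IR had fewer than 20 hashtag UMIs and were left out. Leaving out the 271 barcodes tagged in both moved none of 90 log2 ratios of the members by more than 0.02. A shared barcode tagged in a single tumor library stayed in that setting, so it cannot speak to the rest of the overlap. Markers of the sort were uneven: Ly6c2 stood at 2056 CPM in blood monocyte-like cluster 3 and 3086 CPM in tumor cluster 7, but at 58.2 CPM in the largest blood neutrophil-like cluster and 40.6 CPM in tumor macrophage-like cluster 10. Fibroblast-like cluster 15 of the tumor, with a median of 29677 UMIs per cell, had 3.79 CPM of Ptprc (CD45) and 5.61 CPM of Itgam (CD11b).

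Tumor-sorted cells and blood-sorted cells differed in most of the members already without IR. In cells labelled WT, 6 of 9 members were at least 2-fold higher in control tumor than in control blood, where 19.8% of all genes with at least 100 UMIs over both groups were, and 1 was at least 2-fold lower, against 15.5% of all genes. In cells labelled cKO it was again 6 higher, against 27.4% of all genes, and 1 lower, against 16.5%. The limit of 2-fold is a log2 ratio of 1 and marks size alone. TMM scaling lowered all ratios of this comparison in cKO by 0.16. A sum over a group cannot tell a different mix of cells from a different amount of RNA per cell, and the tumor and blood groups held largely different clusters of cells.

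**Figure D1:**
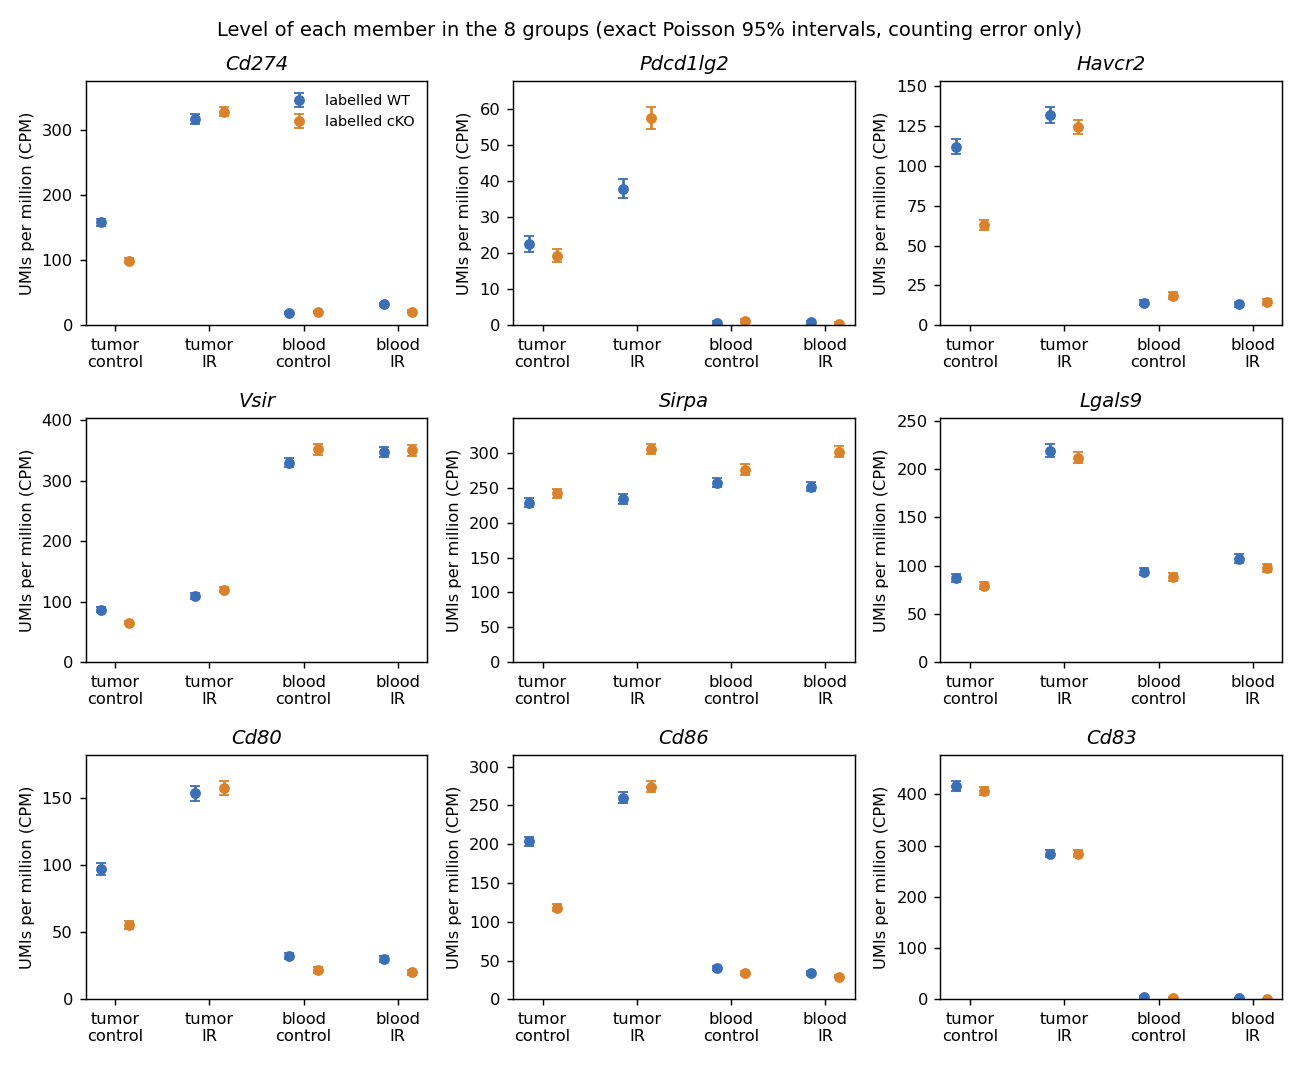
Level of each of the 9 members in the 8 groups, in CPM (linear axes that start at 0), with blue points for cells labelled WT, orange points for cells labelled cKO and bars for exact Poisson 95% intervals of counting error. Cd274 and Lgals9 were highest in the irradiated tumor, Cd83 in the control tumor and Vsir in blood.

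Cd274 lies at chr19:29367455-29388095 on the plus strand of GRCm38, and Pdcd1lg2 lies next to it downstream, at chr19:29410919-29471161 on the same strand. In control tumor, Cd274 stood at 158 CPM (153 to 164) in cells labelled WT and 98.99 CPM (95.04 to 103) in cells labelled cKO. In irradiated tumor it stood at 318 CPM (310.1 to 326) and 328 CPM (321 to 335). The 2 irradiated groups were the highest of the 8 and their intervals overlapped, whereas the intervals of the 2 control tumor groups did not. In blood, Cd274 was at 18.996 CPM (17.2 to 20.9) in control WT, 20.1 CPM (18.2 to 22.2) in control cKO, 31.8 CPM (29.5 to 34.3) in IR WT and 20.9 CPM (18.9 to 23.1) in IR cKO. The irradiated group labelled WT was above the other 3 blood groups, whose intervals overlapped. Control tumor exceeded control blood 8.30-fold in cells labelled WT and 4.91-fold in cells labelled cKO.

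Pdcd1lg2, the second PD-1 ligand, was nearly limited to the tumor samples. It stood at 22.5 CPM (20.5 to 24.7) in control WT, 19.3 CPM (17.6 to 21.2) in control cKO, 37.9 CPM (35.3 to 40.7) in IR WT and 57.5 CPM (54.6 to 60.6) in IR cKO. The irradiated group labelled cKO was the highest, the irradiated WT group came next, and the control intervals overlapped. Blood held 8 to 22 Pdcd1lg2 UMIs per group, or 0.424 to 1.15 CPM, so differences among blood groups were not detectable at this depth for most pairs.

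Vsir (chr10:60346851-60372684, plus strand) ran the other way. In blood it stood at 329.6, 352, 347 and 349.9 CPM in control WT, control cKO, IR WT and IR cKO, and in tumor at 87.1, 65.6, 109 and 120.2 CPM. All 4 blood groups were above all 4 tumor groups. The log2 ratio of control tumor to control blood was -1.92 (-1.996 to -1.84) in cells labelled WT and -2.42 (-2.50 to -2.34) in cells labelled cKO, a 3.78-fold and a 5.35-fold lower level in tumor.

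Havcr2 (chr11:46454935-46481255, plus strand) was a tumor gene in these samples and Lgals9 (chr11:78962974-78984946, minus strand) was not. Havcr2 stood at 112, 62.7, 132 and 124 CPM in tumor control WT, control cKO, IR WT and IR cKO, and at 13.1 to 18.6 CPM in blood. The control tumor group labelled cKO was well below the other 3 tumor groups. Lgals9 stood at 87.4 CPM (83.3 to 91.5) and 79.5 CPM (75.9 to 83.1) in control tumor, WT and cKO, and at 219 CPM (213 to 226) and 212 CPM (206 to 218) in irradiated tumor. Blood held 93.9, 87.8, 107 and 97.7 CPM of Lgals9 in the order used for Vsir. Control tumor and blood were thus close, with log2 ratios of -0.10 and -0.14 (0.09 and 0.21 without lymphoid and non-immune clusters), and only the 2 irradiated tumor groups stood apart.

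Sirpa (chr2:129592835-129632228, plus strand) varied least. Its level was 228, 242, 234 and 305 CPM in tumor control WT, control cKO, IR WT and IR cKO, and 257, 276, 251 and 301.4 CPM in blood in the same order. Tumor and blood differed by log2 ratios of only -0.17 and -0.19, which turned to 0.05 and 0.30 without lymphoid and non-immune clusters. Within each of the 4 libraries the cells labelled cKO were the higher ones, from log2 0.08 in tumor control to 0.38 in tumor IR, each short of the 2-fold limit. With the same hashtag margin for both labels the tumor control ratio turned to -0.21, and within neutrophil-like cells the blood control ratio turned to -0.15.

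Both B7 ligands were tumor genes. Cd80 (chr16:38455561-38496335, plus strand) stood at 96.9 CPM (92.6 to 101), 55.6 CPM (52.7 to 58.7), 153 CPM (148 to 159) and 157 CPM (152 to 162) in tumor control WT, control cKO, IR WT and IR cKO. Cd86 (chr16:36603869-36666081, minus strand) stood at 204 CPM (197 to 209.9), 118 CPM (114 to 123), 260.2 CPM (253 to 267) and 274 CPM (268 to 281) in the same groups. For both genes the control group labelled cKO was lowest, the control group labelled WT lay between, and the irradiated groups were highest. In blood, Cd80 was 32.1 and 30.1 CPM in the control and IR groups labelled WT against 21.7 and 20.1 CPM in those labelled cKO, without overlap of the intervals between labels. Cd86 was 29.5 to 40.7 CPM in blood.

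Cd83 (chr13:43784775-43803132, plus strand) showed the widest contrast between tissues and was lower after IR, where most other members were higher. It stood at 416 CPM (407 to 425) and 407 CPM (399 to 415) in control tumor, WT and cKO, and at 284 CPM (277 to 292) and 284 CPM (277 to 291) in irradiated tumor. Blood held 5.61, 3.13, 2.70 and 0.9003 CPM in control WT, control cKO, IR WT and IR cKO, from 120, 60, 60 and 17 UMIs. Control tumor exceeded control blood 73.5-fold in cells labelled WT and 128-fold in cells labelled cKO.

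The share of cells with a UMI depends on depth, so it was also taken after each cell was thinned to 1000 UMIs. Thinned, Cd274 was found in 15.2% and 12.03% of control tumor cells labelled WT and cKO and in 28.3% and 26.8% of irradiated ones, where the unthinned shares were 47.6%, 44.1%, 64.9% and 65.9%. Thinned Cd83 shares were 31.5%, 33.2%, 22.2% and 20.7% in the same order, against unthinned shares of 66.1%, 70.1%, 52.1% and 50.7%. Tumor NK cell-like cells held Cd83 in 1.18% of thinned cells at a median depth of 2484 UMIs. Tumor fibroblast-like cluster 15, at 29677 UMIs, held Cd274 in 0.238%. The direction of both genes was the same in shares and in CPM.

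IR went with higher levels of most members in the tumor. In cells labelled WT, 8 of 9 members had a positive log2 ratio of IR to control and 2 of 9 passed 2-fold, Lgals9 at 1.33 (1.25 to 1.41) and Cd274 at 1.01 (0.95 to 1.07), where 2.6% of all genes were higher by that much. Pdcd1lg2 followed at 0.75 (0.58 to 0.92) and Cd80 at 0.66 (0.58 to 0.75). Cd86, Vsir and Havcr2 had smaller ratios of 0.35, 0.33 and 0.24, and for Sirpa the interval held 0 at 0.03 (-0.02 to 0.09). Cd83 was the exception at -0.55 (-0.60 to -0.50). The median was 0.35 over the members and -0.13 over all genes. Cd274 lay at the limit itself, and its ratio ranged from 0.67 to 1.16 over 16 alternatives, past 2-fold in 9 of them.

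In cells labelled cKO, 5 of 9 members passed 2-fold upward, against 5.18% of all genes. They were Cd274 at 1.73 (1.66 to 1.80), Pdcd1lg2 at 1.57 (1.42 to 1.73), Cd80 at 1.499 (1.41 to 1.59), Lgals9 at 1.41 (1.34 to 1.49) and Cd86 at 1.21 (1.15 to 1.28). Havcr2 and Vsir lay just under the limit at 0.99 and 0.87, Sirpa was at 0.33, and Cd83 was again lower at -0.52 (-0.56 to -0.47). The median was 1.21 over the members and -0.18 over all genes. TMM scaling raised every ratio by 0.15 in WT and 0.21 in cKO, which put Havcr2 and Vsir past the limit in cKO.

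The share of fibroblast-like cells differed between the groups as well. Cluster 15, in which 7 fibroblast markers were raised and Cd80, Cd83, Cd86, Havcr2 and Vsir were below 4 CPM, held 30.1% of the gene UMIs of control tumor cells labelled cKO, 16.5% of control WT, 9.36% of IR WT and 5.26% of IR cKO. Without lymphoid and non-immune clusters, the IR ratios in cKO were 1.29 for Cd274, 1.198 for Pdcd1lg2, 1.13 for Lgals9, 1.05 for Cd80 and 0.76 for Cd86, so that Cd86 no longer passed 2-fold. In WT they were 1.24 for Lgals9 and 0.85 for Cd274, which then lay below the limit. Cd83 was -0.71 in WT and -0.97 in cKO in that setting. The sign for Sirpa turned to -0.11 and -0.08.

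**Figure D2:**
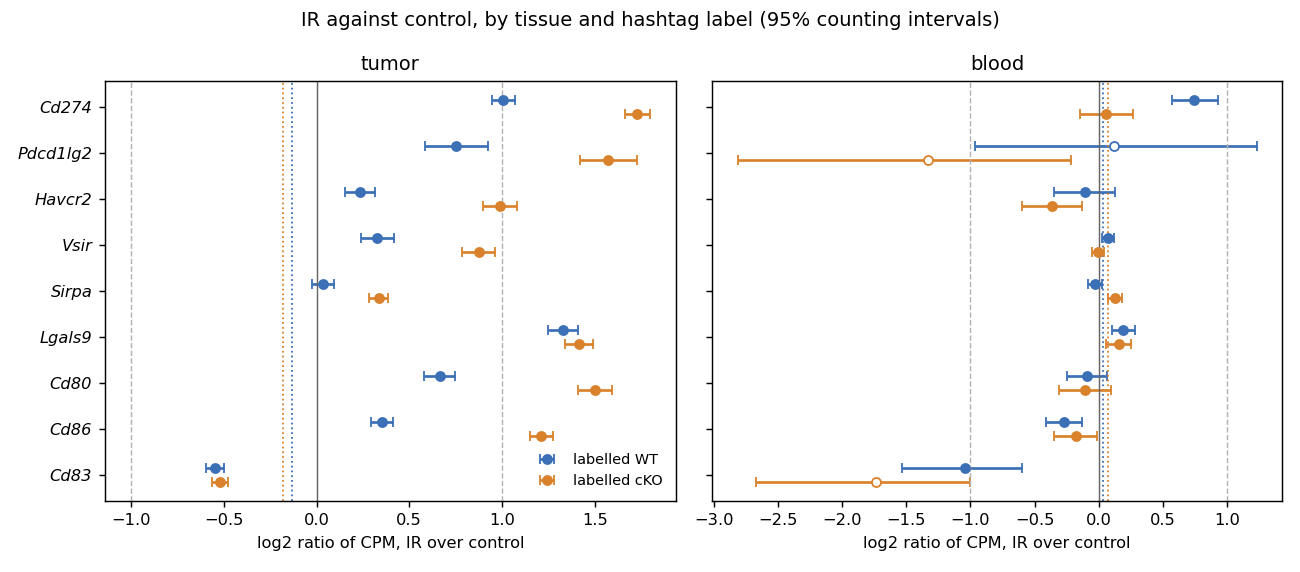
Log2 ratio of CPM, IR over control, for each member in tumor (left) and blood (right), with blue for cells labelled WT, orange for cells labelled cKO, bars for 95% counting intervals, open points for members under 100 UMIs over both groups, dotted lines for the median of all genes and dashed lines at the 2-fold limit. In tumor the members lie right of the median line except Cd83 in both labels, and in blood most lie near 0.

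Cd274 and Lgals9 were the members past 2-fold after IR in tumor cells of both labels, and the 250 bases before their RefSeq transcription start are shown for that reason. They come from RefSeq on GRCm38.p6, written 5′ to 3′ on the strand of the gene, with capitals for the only match to the core of an interferon-stimulated response element.
Cd274, chr19:29367188-29367437, plus strand: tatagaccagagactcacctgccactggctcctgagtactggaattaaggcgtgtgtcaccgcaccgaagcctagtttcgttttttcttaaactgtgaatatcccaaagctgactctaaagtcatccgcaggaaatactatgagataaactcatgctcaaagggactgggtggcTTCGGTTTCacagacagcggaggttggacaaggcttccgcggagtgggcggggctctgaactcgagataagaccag
Lgals9, chr11:78984925-78985174, minus strand: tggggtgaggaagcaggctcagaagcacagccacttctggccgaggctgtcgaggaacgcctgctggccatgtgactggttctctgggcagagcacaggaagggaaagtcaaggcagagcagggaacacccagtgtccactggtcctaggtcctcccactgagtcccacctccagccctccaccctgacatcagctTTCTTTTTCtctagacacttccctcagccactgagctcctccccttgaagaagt
The match begins 76 bases before the RefSeq start in Cd274 and 54 bases before it in Lgals9, in both on the strand opposite to the gene. The Lgals9 window reaches past the GENCODE start of that gene at chr11:78984946, so its last bases lie inside the gene. From that start the Lgals9 match is closer than 54 bases. The letters searched were GAAANNGAA for this core, TTCNNNGAA for a gamma-activated site and GGNNTTTCC for a kappaB-like core, on both strands. Of all 32851 promoter windows of this length, 7.13% held the first, 7.02% the second and 4.93% the third. The windows of Pdcd1lg2, Havcr2, Vsir and Cd80 held none of the 3 in these 250 bases, Sirpa, Cd86 and Cd83 were not analysed, and a match describes letters only. The Cd80 window (chr16:38458683-38458932) lies inside the gene, downstream of its GENCODE start at chr16:38455561, so bases before that start were not searched.

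The clusters showed which cells carried each gene. They were made without the 9 members among the genes that define them, and each was named from fixed markers or left unnamed. Cd274 was highest by far in tumor neutrophil-like cluster 13 (leading genes Ccl3 and G0s2) at 1301 CPM (1238 to 1366). Mature dendritic cell-like cluster 17 followed at 472 CPM (429 to 517) and unnamed cluster 7, led by the interferon-stimulated genes Ifit1bl1, Ifit2 and Rsad2, at 439.9 CPM (426 to 455). In the irradiated tumor, cluster 13 stood at 1260 CPM in WT and 1460 CPM in cKO. Among blood neutrophil-like clusters, Cd274 was 109.6 CPM in cluster 8 (leading gene Ifit3b), 53.4 in cluster 0, 24.6 in cluster 1 and 5.91 in cluster 14, which was led by the granule gene Ngp. No blood cluster came near tumor cluster 13, and blood monocyte-like cluster 3 was at 2.55 CPM.

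Mature dendritic cell-like cluster 17, marked by Ccr7, Fscn1 and Ccl22, was the highest named class for 4 of 9 members, under each of 8 settings for clusters, labels and filters. It held Cd83 at 1332 CPM (1260 to 1407), Cd86 at 559 CPM (513 to 609), Cd80 at 329.9 CPM (295 to 368) and Pdcd1lg2 at 250.3 CPM (219.7 to 284). The same cells were low in Havcr2, Vsir and Lgals9, at 6.20, 10.3 and 15.5 CPM. Conventional dendritic cell-like cluster 12 held Cd83 at 843 CPM in tumor, above macrophage-like cluster 10 in each group but control cKO (745 against 759.9 CPM), and its blood counterpart stood at 3.92 CPM. Cluster 17 held 150 cells over 4 groups, and 1 group alone had the 50 cells needed for values of its own.

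Pdcd1lg2 was also present in tumor lymphoid clusters, at 88.7 CPM (68.2 to 113) in T cell-like cluster 16 and 82.6 CPM (66.1 to 102) in NK cell-like cluster 11, where blood NK cell-like cells had 1.40 CPM. The other members were low in the same tumor NK cell-like cells, with Cd83 at 9.49, Cd80 at 6.64, Cd86 at 5.69 and Sirpa at 3.80 CPM. The share of thinned cells with Pdcd1lg2 was 8.28% in tumor NK cell-like cells against 4.87% in cluster 13 and 2.10% in cluster 10.

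Macrophage-like cells carried Sirpa and, in part, Cd83. Cluster 10, led by the resident macrophage genes Fcrls, Ccl8 and Folr2, had Sirpa at 467 CPM (452 to 481) and Cd83 at 709 CPM (692 to 727), while Cd274 and Cd80 were only 99.95 and 44.0 CPM. Cluster 5, led by Mmp13, Mmp12 and Cxcl3, had Sirpa at 365, Cd274 at 336 and Cd83 at 241 CPM. Havcr2 was highest in unnamed cluster 4 at 219.8 CPM (212 to 228), and both Havcr2 and Cd83 were among the 10 leading genes of that cluster although neither was used to make it. Lgals9 peaked in cluster 7 at 442 CPM (428 to 457), above every other cluster of either tissue. In blood its highest value was in cluster 8, the Ifit3b cluster, at 176 CPM (162 to 192). Vsir lay at 275 to 429.7 CPM in the blood monocyte-like and neutrophil-like clusters and at 100.1 to 151 CPM in tumor clusters 2, 4, 5, 7, 9, 10 and 13.

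**Figure D3:**
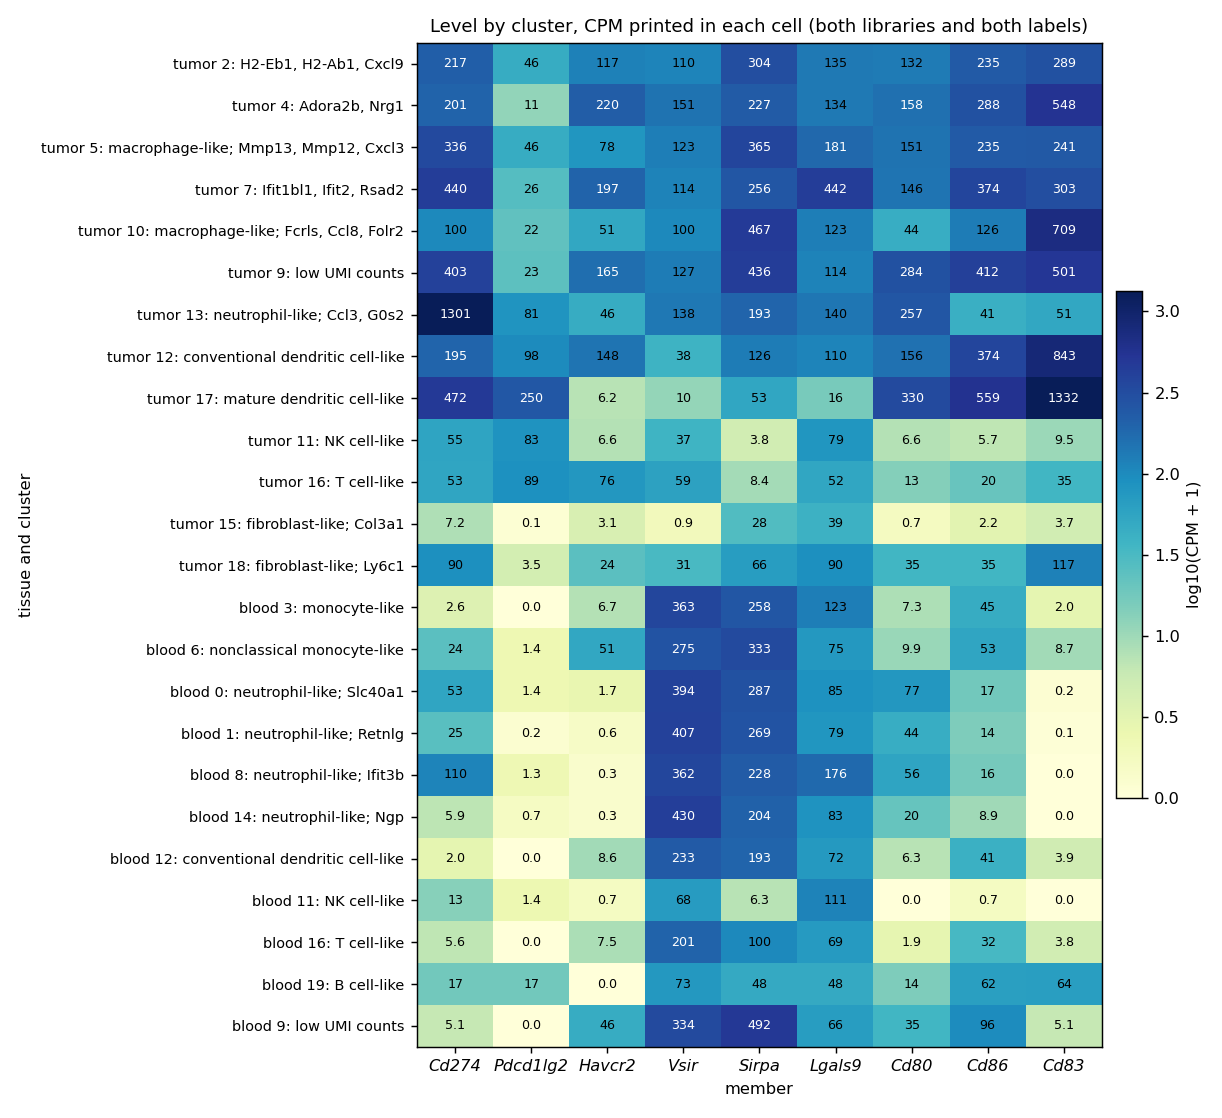
CPM of each member (columns) in each cluster of tumor and of blood cells (rows), over both libraries and both labels, with the CPM printed in each cell and color for log10(CPM + 1). The darkest cells are Cd274 in tumor cluster 13 and Cd83 in tumor cluster 17, and Vsir is dark across the blood neutrophil-like and monocyte-like rows.

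The share of tumor cells in single clusters differed between control and IR. Cluster 7, the highest in Lgals9, held 1.43% of control and 18.2% of irradiated tumor cells labelled WT, and 0.511% and 16.1% of those labelled cKO. Neutrophil-like cluster 13 held 0.556% and 10.5% in WT and 1.21% and 6.51% in cKO. Macrophage-like cluster 5 held 10.4% and 19.2% in WT and 5.67% and 24.8% in cKO, while cluster 2, with 40.6% and 37.2% of the Cd274 UMIs of control WT and cKO, went from 31.2% to 14.8% and from 27.3% to 17.5% of cells. After IR, cluster 7 held 37.5% of Lgals9 UMIs and 24.6% of Cd274 UMIs in WT, from 18.1% of all gene UMIs, and 34.1% and 22.8% in cKO, from 16.4%. Cluster 5 held 19.9% of Lgals9 and 23.3% of Cd274 in WT, from 22.4% of all gene UMIs, and 27.2% and 31.0% in cKO, from 28.0%, and so held more of the Cd274 of irradiated cKO than cluster 7. Cluster 13, with 3.31% of all gene UMIs of irradiated WT, held 13.1% of its Cd274. Without clusters 7 and 13, a setting chosen after the data had been examined, the ratio in WT was 0.70 for Cd274 and 0.99 for Lgals9, so that neither passed 2-fold. In cKO both still did, at 1.501 and 1.09.

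**Figure D4:**
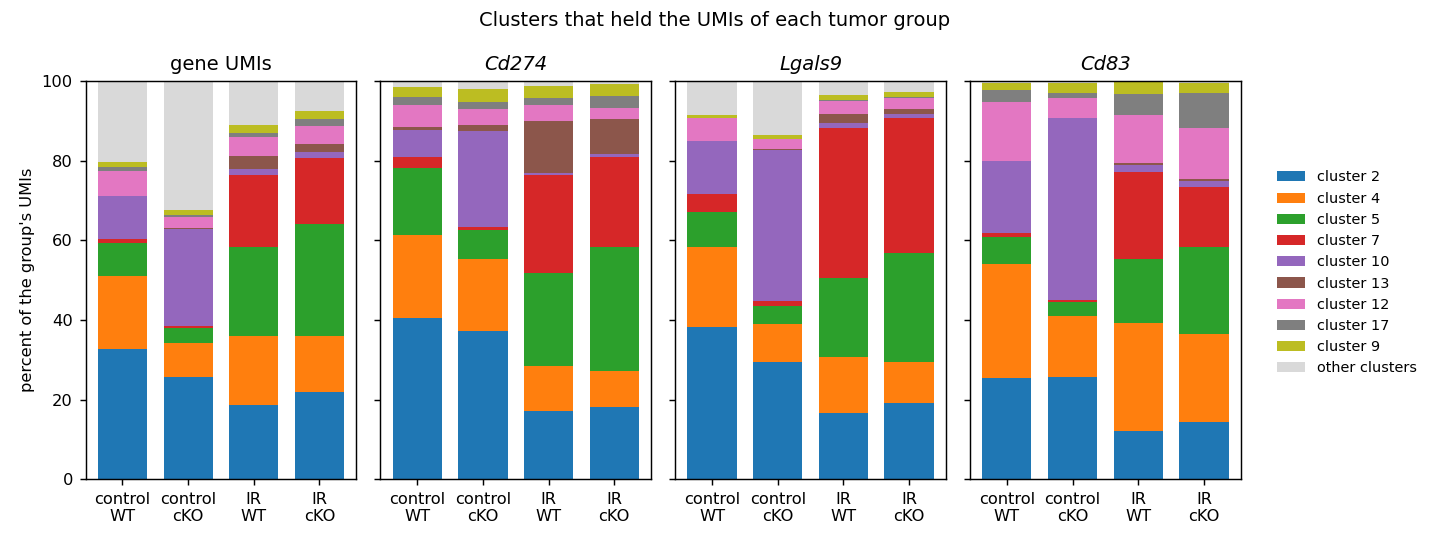
Percent of all gene UMIs and of the Cd274, Lgals9 and Cd83 UMIs of each tumor group (control and IR, cells labelled WT and cKO) that came from each cluster. Clusters 7 (red) and 13 (brown) widen from control to IR for Cd274 and cluster 7 for Lgals9, and cluster 10 (purple) narrows, most for Cd83 in cells labelled cKO.

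Differences after IR also appeared inside single clusters. In 6 tumor clusters with at least 50 cells in every group (2, 4, 5, 9, 10 and 12), each taken for both labels, the members gave 98 ratios with at least 100 UMIs. NK cell-like cluster 11 also had the cells and was not taken, and 0 members reached 100 UMIs there. Cluster 9 was unnamed, with a median of 1307 UMIs per cell and mitochondrial genes among its leading genes. The interval lay above 0 in 50 of the 98, against 19.1% of all gene ratios of these clusters, and below 0 in 15 of 98, against 13.2%. These intervals narrow with a gene's UMIs, so a share rests in part on how well a gene was counted. RNA outside cells (ambient, from barcodes ranked 45000 to 90000 by UMIs) also differed between tumor control and tumor IR. It held Cd274 at 213 and 387 CPM, Lgals9 at 114 and 202, Cd80 at 99.9 and 156, Cd83 at 554 and 384 and Sirpa at 293 and 295. All clusters of a library share it, so their ratios are not separate observations. Its part in them was not tested.

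Cd83 was lower with an interval below 0 in 11 of 12 cluster and label pairs. In cluster 10 it went from 704 to 358 CPM in WT and from 759.9 to 263 CPM in cKO, log2 ratios of -0.97 (-1.27 to -0.69) and -1.53 (-1.82 to -1.25). In cluster 2, which had high levels of the class II genes H2-Eb1 and H2-Ab1, it went from 325 to 186 and from 406 to 187 CPM. The exception was conventional dendritic cell-like cluster 12 in cKO at 0.12 (-0.03 to 0.28).

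Lgals9 was higher with an interval above 0 in 9 of 10 measured pairs. In cluster 5 it went from 92.8 to 195 CPM in WT and from 92.1 to 206 CPM in cKO, and the exception was cluster 10 in cKO at 0.04 (-0.41 to 0.45). Cd80 was higher by this measure in 9 of 12 pairs, Cd274 in 8 of 12 and Cd86 in 7 of 12, with 1 of 12 lower for Cd86. Pdcd1lg2 was higher in 5 of 7 measured pairs and reached 1.99 (1.26 to 2.85) in cluster 5 of cKO, from 16.1 to 64.4 CPM. Vsir was higher in 5 of 9.

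The labels did not always match within a cluster. In cluster 5, Cd274 went from 322 to 330.4 CPM in WT and from 184 to 363 CPM in cKO, ratios of 0.04 (-0.11 to 0.18) and 0.98 (0.76 to 1.21). After IR the levels of the labels were close, and the gap lay in the control cells, of which cKO had 122. Havcr2 was mixed, higher in 4, lower in 2 and with an interval over 0 in 6 of 12 pairs, from -0.66 (-1.05 to -0.28) in cluster 12 to 1.16 (0.55 to 1.87) in cluster 9 of cKO. Sirpa was higher in 3 and lower in 1 of 12, with 0.76 (0.57 to 0.95) in cluster 5 of cKO and -0.67 (-1.01 to -0.36) in cluster 10 of WT.

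**Figure D5:**
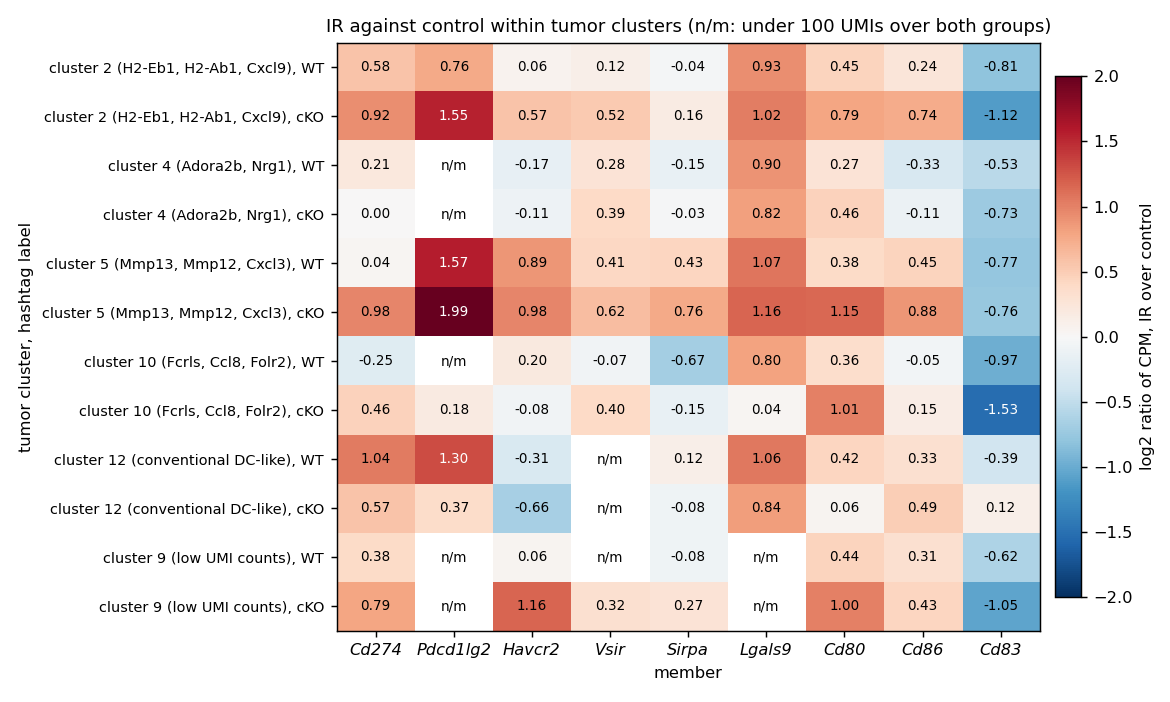
Log2 ratio of CPM, IR over control, of each member (columns) inside 6 tumor clusters, each for cells labelled WT and cKO (rows), with red for higher and blue for lower after IR and n/m where fewer than 100 UMIs were counted over both groups. The Cd83 column is blue in every row but 1 and the Lgals9 column is red in every measured row.

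Macrophage-like cells as a class had lower Cd83 and higher Pdcd1lg2 after IR in both labels, though different clusters filled the class. Control cells labelled WT came from cluster 5 (262 of 455) and cluster 10, control cells labelled cKO mostly from cluster 10 (510 of 632), and irradiated cells mostly from cluster 5 (600 of 651 in WT and 932 of 1000 in cKO). In WT, 1 of 9 members was past 2-fold upward, Pdcd1lg2 at 1.39 (0.94 to 1.88), against 2.98% of all genes. Downward, 1 of 9 passed, Cd83 at -1.36 (-1.47 to -1.25), against 3.56%. In cKO, 4 of 9 were past it upward, against 4.78%, namely Cd80 at 1.95 (1.76 to 2.15), Cd274 at 1.68 (1.56 to 1.80), Pdcd1lg2 at 1.41 (1.16 to 1.69) and Cd86 at 1.05 (0.93 to 1.17). Cd83 was again past it downward at -1.66 (-1.74 to -1.58), against 10.4% of all genes. Cd80 went from 40.01 to 155 CPM in these cKO cells, and from 88.2 to 158 CPM in WT. With finer clusters, at resolution 1.2, the count of members past 2-fold was 0 in WT and 4 in cKO.

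Between labels, none of the members passed 2-fold in either tumor library. In control tumor, 0 of 9 members passed, against 4.88% of all genes, and 8 of 9 were lower in cells labelled cKO. Havcr2 was at -0.84 (-0.93 to -0.74), Cd80 at -0.80 (-0.90 to -0.70), Cd86 at -0.78 (-0.85 to -0.71) and Cd274 at -0.67 (-0.75 to -0.60), with a median of -0.41 over the members and 0.11 over all genes. Without lymphoid and non-immune clusters these ratios were -0.60, -0.57, -0.55 and -0.45, and those of Cd83, Lgals9 and Pdcd1lg2 turned positive, at 0.20, 0.01 and 0.10. Cluster 10 held 24.5% of gene UMIs in control cKO and 10.6% in control WT. In irradiated tumor, 0 of 9 passed, against 1.1% of all genes, and the members stood close except Pdcd1lg2 at 0.60 (0.47 to 0.73) and Sirpa at 0.38 (0.33 to 0.44), both higher in cells labelled cKO. The IR comparisons and the label comparisons use the same 4 tumor groups, so they are not independent of each other.

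In blood, IR went with few differences of the members. In cells labelled WT, 1 of 8 members with at least 100 UMIs passed 2-fold, against 1.29% of all genes in either direction, Cd83 at -1.05 (-1.53 to -0.60) from 60 UMIs after IR and 120 in control. Cd274 had the highest ratio at 0.74 (0.57 to 0.92), and 0.829% of all genes had a higher one. In cells labelled cKO, 0 of 7 passed, against 1.36%, and Cd274 was at 0.06 (-0.15 to 0.26). Cd83 and Pdcd1lg2 were under the minimum of 100 UMIs there and so were not counted. Cd83 was at -1.74, from 17 UMIs after IR and 60 in control, and Pdcd1lg2 at -1.33, from 8 and 22.

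Within neutrophil-like cells of blood, Cd274 was higher after IR in both labels. It went from 38.0 to 66.0 CPM in WT, a ratio of 0.79 (0.59 to 0.999), and from 20.3 to 44.3 CPM in cKO, a ratio of 1.119 (0.84 to 1.41). Clusters of unequal level filled the class, as cluster 14, the lowest in Cd274, held 12.8% of control cells labelled cKO and 0.826% to 1.33% of the other 3 groups. Cluster 8, the highest in Cd274 among them, went from 4.08% to 10.4% of cells after IR in WT and from 3.53% to 9.30% in cKO. Clusters 0 and 1 of the class showed the same direction, and ratios within clusters 8 and 14 are not given here. Inside neutrophil-like cluster 0, Cd274 went from 43.0 to 77.7 CPM in WT and from 36.3 to 52.0 CPM in cKO. Inside cluster 1 it went from 20.9 to 34.2 and from 14.9 to 26.9 CPM, so that it was higher after IR in both labels of both clusters. Nonclassical monocyte-like cluster 6 parted from them. There Cd274 went from 13.2 to 28.7 CPM in WT, a ratio of 1.10 (0.66 to 1.58), and from 34.3 to 16.2 CPM in cKO, a ratio of -1.07 (-1.51 to -0.67). Cluster 6 held 55.4% of all Cd274 UMIs of control blood cells labelled cKO and 15.02% to 17.1% in the other 3 groups. The difference between the 2 labels was not tested.

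Between labels in blood, 0 of 8 members passed 2-fold in control, against 2.22% of all genes, and 0 of 7 after IR, against 0.684%. Cd80 was lower in cells labelled cKO in both libraries, at -0.56 (-0.75 to -0.39) in control and -0.58 (-0.76 to -0.40) after IR. Cd83 was at -0.83 (-1.32 to -0.39) in control and at -1.53 (-2.45 to -0.79) after IR, the latter from 17 and 60 UMIs and so under the minimum of 100 UMIs for a count. Cd274 was at 0.08 (-0.12 to 0.29) in control and -0.60 (-0.79 to -0.43) after IR. Vsir, Sirpa and Lgals9 lay between -0.13 and 0.26 in both libraries.

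Genes that act with the members were described from 3 lists. Of 14 interferon signalling genes, 1 was past 2-fold upward after IR in tumor cells labelled WT, against 2.6% of all genes, namely Stat2, a part of the interferon-activated complex, at 1.60 (36.9 to 112 CPM). In cells labelled cKO 5 of 14 were, against 5.18% of all genes, among them Stat2 at 2.46, Irf9 at 1.49, the feedback inhibitor Socs1 at 1.18 and the kinase Jak2 at 1.02. After IR in blood, 0 of the 14 passed in either label, against 1.29% of all genes in WT and 1.36% in cKO. Between labels in control tumor, 0 of 14 passed 2-fold, against 4.88% of all genes, 13 of 14 had a negative ratio of cKO to WT, with Stat2 at -0.96, and the median was -0.46, against 0.11 over all genes. In the same groups fibroblast-like cluster 15 held 30.1% of gene UMIs in cKO and 16.5% in WT, and its part in these ratios was not tested.

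Of 11 receptors and partners of the members, 0 were past 2-fold upward after IR in tumor cells labelled WT, against 2.6% of all genes. The lowest were Pdcd1 (PD-1) at -2.93 (7.07 to 0.886 CPM) and Cd28 at -1.29, both past 2-fold downward. The share of all genes past 2-fold downward is not given here. T cell-like cluster 16 held 42 and 31 control tumor cells labelled WT and cKO, and 13 and 15 after IR. The part of this in the Pdcd1 and Cd28 ratios was not tested. In cells labelled cKO, 2 of 9 measured partners were past it upward, against 5.18% of all genes, Thbs1, a ligand of CD47, at 1.51 and Selplg, a ligand of VISTA, at 1.14. Between control tumor and control blood the partners went both ways. In WT, 4 of 11 were past 2-fold higher in tumor and 4 lower, against 19.8% and 15.5% of all genes. In cKO, 2 of 8 measured were higher and 4 lower, against 27.4% and 16.5%. Thbs1 was higher at 2.94 in WT and 3.29 in cKO, and Ceacam1 was lowest at -2.68 and -3.53. Selplg was lower in tumor, as Vsir was, at -2.09 in WT and -2.54 in cKO. So was the phosphatase gene Ptpn6, at -1.64 and -1.98. Between labels, 3 of 11 partners were past 2-fold in control tumor, against 4.88% of all genes, Pdcd1 at -2.16, Cd28 at -1.30 and Thbs1 at -1.12, and 1 of 8 in each blood library, against 2.22% in control and 0.684% after IR, Thbs1 at -1.48 in control and -1.21 after IR, all lower in cells labelled cKO.

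Of 19 other checkpoint and costimulatory ligands, 15 were measured after IR in tumor cells labelled WT. Of these, 0 passed 2-fold upward, against 2.6% of all genes. Downward 0 passed as well, without a share of all genes to set beside it. The highest was Lilrb4a at 0.73 and the lowest Tnfsf9 (4-1BB ligand) at -0.61. In cells labelled cKO, 2 of 15 measured were past 2-fold upward, against 5.18% of all genes, Cd200 at 2.05 and Pirb at 1.21. Tnfsf9 alone was past it downward, at -1.90 (219.9 to 58.8 CPM), and the share of all genes downward is not given here. Tnfsf9 was the 1 gene of 14 measured in this list past 2-fold between labels in control tumor, at 1.31, against 4.88% of all genes.

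The genes whose level ran most like each member were sought across 62 units, each a cluster in 1 group with at least 50 cells, among 8604 genes. These units share libraries and clusters, so the Pearson correlations of log2(CPM + 5) are a description. The nearest were Cxcl16 for Cd83 at 0.96, Edem1 for Cd86 and Rab32 for Sirpa at 0.93 each, Adap2 for Havcr2 at 0.92, AB124611 for Vsir at 0.91, Slc15a3 for Cd80 and Gadd45b for Cd274 at 0.90 each, and Nr4a3 for Pdcd1lg2 at 0.88. Lgals9 had no gene above 0.72, its value with the interferon-inducible gene Ifi208, and Ifit1bl1 came next at 0.71. Among the members themselves, Cd274 and Cd80 correlated at 0.85, Cd274 and Pdcd1lg2 at 0.72, and Cd274 and Vsir at -0.19.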

How the data were processed

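Gene and hashtag UMIs of 4 droplet libraries were analysed. The authors deposited raw UMI counts per gene and barcode, with no normalization, made with Cell Ranger on the mouse mm10 reference and GENCODE vM23. The submitters' processing notes name Cell Ranger 6.0.1 and Seurat 4.0.6. Gene positions came from GENCODE vM21 and promoter windows from RefSeq, both on GRCm38. All barcodes with a count were in the matrices, so cells were called again.

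A barcode was kept if its UMIs exceeded 1/10 of those of the barcode 99% of the way up the 8000 largest, or from 500 UMIs where it differed from the ambient profile at a Benjamini-Hochberg level of 0.01, with at least 200 genes, at most 25% mitochondrial UMIs and at least 20 hashtag UMIs. A cell was labelled WT where the B0301 hashtag was at least as high as B0302, cKO where B0302 was at least 4 times B0301, and otherwise left out, as were 1288 cells. This rule is not symmetric. Scrublet (scanpy 1.11.5), at its automatic threshold, called no more than 3 doublets in any library and had not worked, so the 6% with the highest scores were removed. The kept cells were clustered with Seurat 5.3.0 (40 principal components, resolution 0.8) on 1994 variable genes, without the members, Ythdf2, Lyz1 and Lyz2. A cluster was called X-like where at least 3 fixed markers were raised (in at least 25% of cells and at least 2-fold above other cells) and its 10 leading genes did not favor another class.

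CPM are a group's summed UMIs of a gene over all its gene UMIs, times 1000000. For ratios, 1 UMI was added to each sum in proportion to depth. Intervals are exact Poisson for CPM and exact conditional binomial for ratios. Cells are not replicates, so no p-value was computed, and a count of genes past 2-fold is a description among genes with at least 100 UMIs over both groups. TMM factors came from edgeR 4.0.16. The ratio and interval steps were tested on simulated data. All 9 members are named, and from each companion list the genes past 2-fold or at its ends, except 1 gene that is not reported here. The members, lists and rules were chosen with earlier results of these data known.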

Additional observations from a re-analysis of the deposited data

Results flagged for a closer look

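Pdcd1lg2 went opposite ways after IR in tumor and blood cells labelled cKO, with log2 ratios of 1.57 in tumor and -1.33 in blood, each at least 0.5 in size with an interval that left out 0. Within neutrophil-like cells the blood ratio was 0.13. Havcr2, Vsir, Cd80 and Cd86 also had opposite signs, with blood ratios of -0.36, -0.01, -0.11 and -0.18, each less than 0.5 in size. The difference for Pdcd1lg2 was not tested, and the blood value rests on 8 UMIs after IR and 22 in control, with an interval of -2.81 to -0.21.

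Cd274 in blood nonclassical monocyte-like cluster 6 went opposite ways after IR in the 2 labels, with log2 ratios of 1.10 in WT and -1.07 in cKO, from 61 and 121 UMIs in control and IR WT and 214 and 64 UMIs in control and IR cKO. The difference was not tested. No group has the 4 samples that a search for outlying samples needs.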

How the results depend on the processing

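Of 1332 values of the members under up to 16 alternatives in 10 comparisons, 1097 moved by less than their counting interval and 235 moved by more. Of values past 2-fold with at least 100 UMIs, 0 changed sign. Pdcd1lg2 after IR in blood cKO, which had fewer UMIs, went from -1.33 to 0.13 within neutrophil-like cells, and several ratios near 0 changed sign, those of Sirpa among them. The count of members past 2-fold after IR in tumor cells labelled WT (2) was 1 with the same hashtag margin both ways, with Seurat's HTODemux, with the order-of-magnitude threshold alone, without lymphoid and non-immune clusters and with clusters 2, 4, 5, 7 and 10 alone, and 0 without clusters 7 and 13. After IR in blood WT (1) it was 0 with the same margin, with the order-of-magnitude threshold and within neutrophil-like cells alone. In blood cKO (0) it was 2 with a minimum of 20 UMIs (Pdcd1lg2 and Cd83) and 1 (Cd274) within neutrophil-like cells. Between labels, from 0, it was 1 in blood IR with a minimum of 20 UMIs (Cd83), 1 in blood control with the mean of each cell's CPM (Cd83) and 1 in tumor control within macrophage-like cells (Cd80). For macrophage-like cells after IR in WT (2) it was 1 at resolution 0.4, 0 at resolution 1.2 and 1 with no Scrublet removal. The cause was not tested. The settings on clusters 7 and 13, on clusters 2, 4, 5, 7 and 10, on cluster 9 and on barcodes tagged in both tumor libraries were chosen after the data had been examined. No paired analysis was possible because each group is 1 pool, and no replicate could be left out. Pooling, droplet library and treatment cannot be told apart, and in blood Pdcd1lg2 and Cd83 had too few UMIs for firm ratios.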

Other observations

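Tumor cluster 9, with a median of 1307 UMIs per cell, with mitochondrial genes among its leading genes and left unnamed, held Cd274 at 403 CPM (371 to 437) and Cd80 at 284 CPM (257 to 313), levels above those of most tumor clusters. Ambient RNA held Cd274 at 213 CPM in tumor control and 387 CPM in tumor IR, and Cd80 at 99.9 and 156 CPM. Its part in the levels of this cluster was not tested. Tumor neutrophil-like cluster 13 held Cd80 at 257 CPM (229.7 to 287) beside Cd86 at 41.1 CPM (30.6 to 54.1) and Cd83 at 50.8 CPM (39.0 to 65.0). In the B cell-like cluster of blood, Cd83 stood at 64.3 CPM (40.8 to 96.6), the highest of the blood clusters.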
